A study of Homo sapiens with 12 samples.

Results

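Antigen processing and presentation genes were followed in macrophages derived from a human monocytic line. The 32 genes were taken by symbol from the 58907 rows of the deposited count table, and were chosen with earlier results of these data known. They fall into 12 genes of MHC class I presentation, 13 of class II presentation and 7 shared or related genes. The cells, (PPRE)-eGEP-THP-1, come from the THP-1 leukaemia line and carry the label monocyte; the labels do not say whether they are 1 clone. All were differentiated for 48 h with 25 ng/mL phorbol 12-myristate 13-acetate, rested for 24 h and were then polarized for 24 h. The M1 MCHP group had 100 ng/mL lipopolysaccharide and 20 ng/mL interferon gamma with 100 µM MCHP, monocyclohexyl phthalate, the monoester of the plasticizer dicyclohexyl phthalate. The M1 DMSO group had the same lipopolysaccharide and interferon gamma with the solvent. The M2 MCHP group received interleukin 4 and interleukin 13 (20 ng/mL each) with 100 µM MCHP, and the M2 DMSO group the same interleukins with the solvent. No group was left unpolarized, so a rise in M1 cannot be told from a fall in M2, nor the reverse. Each group held 3 libraries, which the design text calls biological replicates without naming separate cultures, so p-values measure the spread between these libraries.

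MHC class I molecules display peptides from inside the cell to CD8+ T cells. A polymorphic heavy chain (HLA-B, HLA-C) pairs with beta-2-microglobulin (B2M) in the endoplasmic reticulum, where peptides arrive through the TAP1-TAP2 transporter and are trimmed by ERAP1 and ERAP2. MHC class II molecules display peptides from endosomes to CD4+ T cells. Their alpha and beta chains assemble on the invariant chain CD74, which is cut by cathepsin S (CTSS) and exchanged for peptide with the help of HLA-DM. Interferon gamma is known to induce both routes in macrophages, class I through the transactivator NLRC5 and class II through the transactivator CIITA, and both transactivators act on promoter-bound RFX proteins.

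Libraries held 14352202 to 16871233 counts, and 29 of the 32 genes passed the filter on low counts that left 15252 genes for testing. HLA-F, HLA-DPB1 and HLA-DOA did not pass. Of the listed macrophage and monocyte markers, CD14, ITGAM, CSF1R, LYZ, SPI1 and CD163 were expressed, while CD68 had at most 7 counts in a library and MSR1 at most 9; 85.8% of the CD68 exon bases are shared with other annotated genes. CPM, counts relative to library size, are TMM-scaled except in sums over a marker list, which use library size alone. The 8 markers of this list summed to 1405 to 1448 CPM in M1 MCHP, 1471 to 1517 in M1 DMSO, 1445 to 1481 in M2 MCHP and 1520 to 1712 in M2 DMSO. B cell markers, whose source cells would carry much class II RNA, summed to 1.39 to 2.49 CPM over all libraries, and MS4A1 had 0 counts in all 12. The 8 dendritic cell markers summed to 32.5 to 34.3 CPM in M1 MCHP, 33.1 to 35.0 in M1 DMSO, 13.0 to 18.1 in M2 MCHP and 18.0 to 23.9 in M2 DMSO. These sums hide a split in direction. In DMSO, CLEC10A, LAMP3, XCR1 and CCR7 had higher means in M1, while CD1C, CD1A, FLT3 and CLEC9A had lower ones. CLEC10A had means of 22.3 CPM in M1 DMSO and 1.43 CPM in M2 DMSO. FLT3 had 2.76 and 6.09 CPM, and CD1C 0.176 and 3.88 CPM, in the same groups. Of 6 M1 markers, 5 were higher in M1 in both DMSO and MCHP (CXCL9, CXCL10, IDO1, IL1B and TNF). CXCL9, IDO1 and CXCL10 had at most 0, 1 and 16 counts in an M2 library. These 3 passed the filter through their M1 libraries, so their call in that direction follows from the filter. CCL5 was lower in M1, with means of 1917 CPM in M1 MCHP and 2148 CPM in M1 DMSO, against 3203 CPM in M2 MCHP and 4074 CPM in M2 DMSO. Of 6 M2 markers, CD209, CCL22 and TGM2 were lower in M1 under both treatments. CCL13 was higher in M1 in MCHP and not called in DMSO, and CCL17 and MRC1 had at most 0.294 and 0.0685 CPM in a library and were not tested. In bulk RNA, fewer cells of a type and less RNA per cell cannot be told apart.

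The library M2 DMSO replicate 1 differed from its group. The SD over genes of a library's log2 distance from its fellow replicates was 0.445 here and 0.315 to 0.352 in the other 11. Of 10 type I interferon response genes, 9 were higher in it than the mean of the other M2 DMSO libraries, with a median log2 distance of 0.54. Calls that changed without it are given beside the results, as are class medians in M2.

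Of the 32 genes, 16 lie in the MHC on chromosome 6 (chr6:29722775-33314387, hg38 as in the count table) and 16 elsewhere. Exons of 19 overlap those of another annotated gene, most for IFI30 (40.2% of its exon bases), TAP2 (32.3%), HLA-F (28.5%), CIITA (23.4%), RFXANK (23.3%), HLA-B (18.9%) and PDIA3 (18.9%). The sources used here do not give the strand setting or the treatment of reads with several matches, so counts of these genes, and of the HLA paralogs among themselves, are uncertain. CD74, B2M, NLRC5, HLA-DRA, HLA-E and CTSS share no exon base with another gene.

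Upstream sequence was read for the genes whose results carry the comparisons with MCHP, HLA-C and CD74, and for their closest relatives or partners among the members. The class I heavy chain HLA-B is the paralog of HLA-C, B2M is its light chain, and HLA-DRB1 is the beta chain of the class II pair HLA-DR that CD74 chaperones. Class I and class II promoters are known for an SXY module, in which an X box, bound by RFX, an X2 box, bound by CREB/ATF, and an inverted CCAAT or Y box, bound by NF-Y, recruit NLRC5 or CIITA. RefSeq windows of 250 bases before the start (GRCh38.p14) were found for 26 of the 32 genes, 39 windows in all; HLA-E, NLRC5, HLA-DRA, CIITA, CTSS and PDIA3 were not matched. Each stretch printed here runs 5′ to 3′ on the strand of its gene, from 150 to 39 bases before the RefSeq start. Capitals mark matches, on either strand, to the X box core AGNAAC, the CCAAT core ATTGG and the X2 core TGACG, and to the interferon-responsive spacing, which is TTTC followed by TTTC 2 bases further on.
HLA-C, chr6:31272131-31272242, minus strand: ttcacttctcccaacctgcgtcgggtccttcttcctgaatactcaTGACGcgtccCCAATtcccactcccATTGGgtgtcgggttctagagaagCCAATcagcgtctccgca
HLA-B, chr6:31357218-31357329, minus strand: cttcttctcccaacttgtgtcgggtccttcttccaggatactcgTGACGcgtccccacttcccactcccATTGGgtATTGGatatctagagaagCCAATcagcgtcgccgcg
B2M, chr15:44711367-44711478, plus strand: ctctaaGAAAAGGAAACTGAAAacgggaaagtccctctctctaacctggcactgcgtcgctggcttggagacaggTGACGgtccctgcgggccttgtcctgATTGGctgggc
CD74, chr5:150412949-150413060, minus strand: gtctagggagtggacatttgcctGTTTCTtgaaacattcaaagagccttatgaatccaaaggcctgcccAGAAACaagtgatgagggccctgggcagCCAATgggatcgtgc
HLA-DRB1, chr6:32589887-32589998, minus strand: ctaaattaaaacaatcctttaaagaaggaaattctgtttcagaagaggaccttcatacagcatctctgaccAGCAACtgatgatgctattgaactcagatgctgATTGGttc

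The 3 class I stretches each hold the X2 core followed downstream by a CCAAT core, and the 2 class II stretches hold an X box core followed by a CCAAT core. HLA-C and HLA-B, set side by side without gaps at the best offset, are identical at 75 of 111 bases. The HLA-B stretch overlaps 1 annotated exon of another gene. In B2M the capitals at the left are 2 matches to the TTTC spacing, read from the other strand, which overlap each other. Over the whole windows, the CCAAT core was present in 19 of the 26 genes (73.1%), against 37.0% of 27305 genes with a window, and the X box core in 16 (61.5%), against 41.7%. The X2 core was present in 11 (42.3%), against 24.9% of all genes. The TTTC spacing was present in 7 (26.9%: HLA-F, B2M, TAP1, TAP2, TAPBP, ERAP2 and RFX5), against 3.71% of all genes. These are matches of letters in a window, and no binding was measured.

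Class I genes were higher in M1 than in M2 cells, in both the MCHP and the DMSO libraries. All 11 that were tested rose in M1 over M2 under either treatment, and in all of them the lowest M1 library lay above the highest M2 library. Log2 fold changes in DMSO ran from 0.66 for ERAP1 to 4.51 for TAP1, with a median of 1.73. In MCHP they ran from 0.68 for ERAP1 to 4.52 for TAP1, with a median of 1.91. Over all genes tested, the medians were -0.004 in DMSO and -0.001 in MCHP. In edgeR's quasi-likelihood test at an adjusted p of 0.05, 21.6% of all tested genes were higher and 20.9% lower in M1 in DMSO, and 21.9% higher and 22.7% lower in MCHP (42.5% and 44.6% in either direction). The direction of such counts depends on scaling: 3296 genes were higher and 3193 lower in DMSO, and 2395 and 4532 with library size alone, while in MCHP 3342 were higher and 3462 lower, and 2678 and 4338 with library size alone. Groups that did not overlap, with M1 above M2, were found for 25.5% of genes in DMSO and 28.3% in MCHP. Together the 12 class I genes took up 1.39% to 1.45% of all counts in M1 MCHP, 1.35% to 1.47% in M1 DMSO, 0.356% to 0.435% in M2 MCHP and 0.419% to 0.489% in M2 DMSO.

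TAP1, a subunit of the peptide transporter, had the largest rise among the class I genes. It had 1356, 1327 and 1280 CPM in M1 MCHP and 1329, 1247 and 1260 CPM in M1 DMSO, against 56.0, 58.9 and 57.4 CPM in M2 MCHP and 56.1, 54.2 and 58.1 CPM in M2 DMSO. The M1 libraries were all high and the M2 libraries all low, with little spread within each group. In DMSO this was a log2 fold change of 4.51 ± 0.06 (SE), or 22.8-fold, with an edgeR adjusted p of 4.958e-20. TAP2, its partner in the transporter, rose by 3.16 ± 0.07 in DMSO, with a mean of 319 ± 16.0 CPM in M1 and 35.7 ± 0.83 CPM in M2 (SD, n = 3 each). NLRC5, the class I transactivator, had 349, 363 and 354 CPM in M1 MCHP and 350.1, 349 and 366 CPM in M1 DMSO, against 40.6, 41.6 and 45.5 CPM in M2 MCHP and 41.7, 47.9 and 50.1 CPM in M2 DMSO. The groups were well apart, and the log2 fold change in DMSO was 2.93 ± 0.07 (edgeR adjusted p = 1.649e-16).

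The chains that reach the cell surface changed less than the transporter on the log2 scale. B2M, the light chain, had 7155, 6609 and 6874 CPM in M1 MCHP and 7140, 7405 and 6546 CPM in M1 DMSO, against 1903, 2097 and 1495 CPM in M2 MCHP and 2592, 1872 and 1880 CPM in M2 DMSO. The M1 libraries were all above the M2 libraries, while the M2 libraries were more spread, with M2 DMSO replicate 1 the highest among them. Its log2 fold change in DMSO was 1.73 ± 0.12 (edgeR adjusted p = 5.106e-10), and 1.91 without M2 DMSO replicate 1. HLA-B, a classical heavy chain, had 2077, 1981 and 1975 CPM in M1 MCHP and 2020, 2087 and 1858 CPM in M1 DMSO, against 664, 702 and 605 CPM in M2 MCHP and 659.6, 690.1 and 728 CPM in M2 DMSO. Its M1 and M2 ranges were well separated, and it rose by 1.52 ± 0.06 in DMSO (edgeR adjusted p = 4.78e-13). HLA-C rose by 1.57 ± 0.08 and HLA-E, a nonclassical heavy chain that presents leader peptides to natural killer cells, by 1.85 ± 0.05.

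Among the genes of peptide loading and trimming, ERAP2 rose by 2.29 ± 0.12, TAPBPL, a tapasin-related peptide editor, by 1.36 ± 0.12, TAPBP (tapasin, which bridges class I and the transporter) by 1.25 ± 0.10 and ERAP1 by 0.66 ± 0.06, all in DMSO. HLA-F was listed with 15, 11, 3 and 2 counts over the 3 libraries of M1 MCHP, M1 DMSO, M2 MCHP and M2 DMSO, and was not tested. On a scale that allows genes to be compared, mean CPM per kilobase of gene model, the levels in M1 DMSO were highest for B2M (1157), HLA-E (705), HLA-B (652), TAP1 (266) and HLA-C (189). In M2 DMSO the order among them was B2M (348), HLA-B (227), HLA-E (196), HLA-C (63.5) and TAP1 (11.7), so TAP1 stood above HLA-C in M1 DMSO and below it in M2 DMSO. HLA-E and HLA-B, neighbours in both orders, had SDs of 22.1 and 38.6 CPM per kilobase in M1 DMSO and 10.2 and 11.3 CPM per kilobase in M2 DMSO, with no test between genes.

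**Figure D1:**
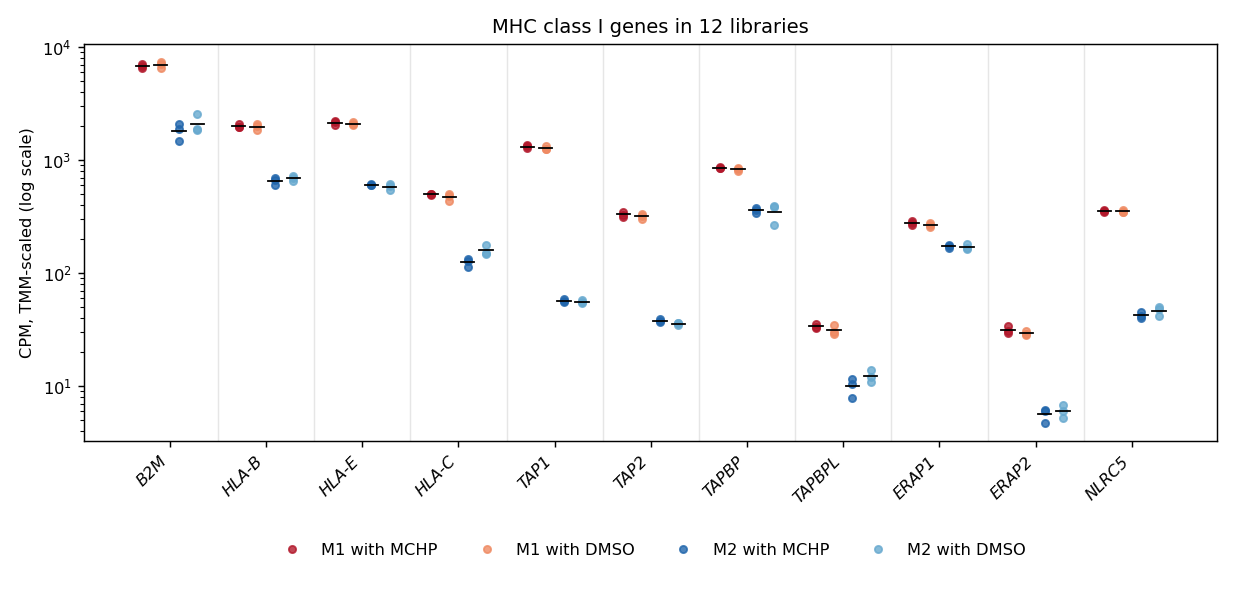
Class I genes by library: TMM-scaled CPM on a log axis, with 1 point per library, a bar at the group mean and the 4 groups in the order M1 MCHP, M1 DMSO, M2 MCHP and M2 DMSO for each gene. The M1 points lie above the M2 points for the 11 tested genes, with the widest gap for TAP1 (1247 to 1356 CPM in M1 and 54.2 to 58.9 CPM in M2), and MCHP and DMSO points of M1 lie together.

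Class II genes were higher in M1 too, but at far lower levels for the chains themselves than for CD74 and CTSS. All 11 tested class II genes rose in M1 over M2 in DMSO and in MCHP, without overlap of the groups. Of all tested genes, 21.6% were called higher in M1 in DMSO and 21.9% in MCHP. Groups lay apart with M1 above M2 for 25.5% in DMSO and 28.3% in MCHP. HLA-DRA, HLA-DRB1, HLA-DPA1, HLA-DQA1 and HLA-DQB1 had at most 4 counts in any M2 library. They and HLA-DMB, with 6, 1 and 6 counts in M2 MCHP and 2, 5 and 16 counts in M2 DMSO, passed the filter through their M1 libraries, so their call in that direction follows from the filter. The median log2 fold change was 3.76 in DMSO and 3.82 in MCHP, CIITA being the middle gene in both. With HLA-DQA1 and HLA-DQB1, which had 0 counts in M2 DMSO, set at their lower bounds, the median in DMSO was 3.71. Over the genes with at least 20 counts in each group compared, it was 1.87 in DMSO (6 genes) and 1.89 in MCHP (5 genes). The 13 class II genes took up 0.220% to 0.225% of counts in M1 MCHP, 0.228% to 0.236% in M1 DMSO, 0.0631% to 0.0689% in M2 MCHP and 0.0725% to 0.0852% in M2 DMSO.

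CIITA, the class II transactivator, had 23.7, 27.2 and 23.2 CPM in M1 MCHP and 32.2, 33.9 and 36.7 CPM in M1 DMSO, against 2.71, 1.28 and 1.23 CPM in M2 MCHP and 2.33, 2.53 and 2.68 CPM in M2 DMSO. All M1 libraries were far above all M2 libraries, and within M1 the MCHP libraries were all below the DMSO libraries. The log2 fold change of M1 over M2 was 3.76 ± 0.17 in DMSO (edgeR adjusted p = 1.219e-12) and 3.82 ± 0.18 in MCHP (edgeR adjusted p = 3.202e-12).

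HLA-DRA, the invariant alpha chain of HLA-DR, had 7.07, 7.19 and 6.16 CPM in M1 MCHP and 10.2, 10.7 and 8.14 CPM in M1 DMSO, against 2, 3 and 0 counts in M2 MCHP and 4, 3 and 1 counts in M2 DMSO. The M2 libraries were close to 0 and the M1 libraries low but clear of them. Its counts over 3 libraries were 306 in M1 MCHP and 5 in M2 MCHP, a ratio of 60.5 (95% exact binomial interval 25.7 to 188, counting error only), and 429 in M1 DMSO and 8 in M2 DMSO, a ratio of 55.6 (28.0 to 129.6 by the same method). HLA-DRB1 had 114 counts in M1 MCHP and 2 in M2 MCHP, and 139 in M1 DMSO and 6 in M2 DMSO.

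HLA-DQB1, HLA-DPA1 and HLA-DQA1, chains of HLA-DQ and HLA-DP, had fitted log2 fold changes of 7.29, 6.76 and 6.75 in DMSO. These values rest on 0 to 2 counts in M2 DMSO and depend on the prior count, so they set no order among the genes. HLA-DPA1 had 3.38, 2.91 and 3.41 CPM in M1 MCHP and 5.00, 6.27 and 4.26 CPM in M1 DMSO, against 0, 1 and 0 counts in M2 MCHP and 1, 0 and 1 counts in M2 DMSO. The M1 libraries were all above the M2 libraries, which held 0 or 1 count. HLA-DQB1 had 8, 9 and 14 counts in M1 MCHP and 28, 15 and 12 counts in M1 DMSO, against 0, 1 and 0 counts in M2 MCHP and 0 in each M2 DMSO library. With a floor of 3 counts over the group, it was at least 19.0-fold higher in M1 DMSO than in M2 DMSO. HLA-DQA1 had 6, 16 and 11 counts in M1 MCHP and 12, 9 and 17 counts in M1 DMSO, against 0, 0 and 2 counts in M2 MCHP and 0 in each M2 DMSO library, and was at least 13.1-fold higher in M1 DMSO than in M2 DMSO by the same floor. Both were thus near the detection limit in M1 and at or under it in M2. HLA-DPB1 had 14 counts in M1 MCHP and 11 in M1 DMSO, against 0 in M2 MCHP and 0 in M2 DMSO, and HLA-DOA, part of the inhibitor of HLA-DM, had 2 counts in all, both in M1 DMSO.

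CD74, CTSS, HLA-DMA and IFI30 had counts in every M2 library, as did CIITA and HLA-DMB. CD74 had 447, 441 and 434.5 CPM in M1 MCHP and 509, 504 and 477 CPM in M1 DMSO, against 134.8, 152.6 and 144 CPM in M2 MCHP and 174.5, 199.6 and 193 CPM in M2 DMSO. None of the 4 groups overlapped another, in the order M1 DMSO, M1 MCHP, M2 DMSO and M2 MCHP. M1 over M2, CD74 rose by 1.39 ± 0.06 in DMSO (edgeR adjusted p = 1.566e-12) and by 1.62 ± 0.06 in MCHP (edgeR adjusted p = 2.012e-13). CTSS rose by 1.79 ± 0.07 in DMSO, to 1854 ± 44.0 CPM in M1 against 536 ± 66.9 CPM in M2 (SD, n = 3 each). HLA-DMA and HLA-DMB, the chains of the peptide editor HLA-DM, rose by 1.96 ± 0.28 and 2.41 ± 0.52, and IFI30, a lysosomal thiol reductase that unfolds antigens, by 1.46 ± 0.40. In CPM per kilobase, M1 DMSO levels were 438 for CTSS and 156 for CD74, against 7.56 for HLA-DRA, 2.98 for HLA-DMA, 2.52 for HLA-DRB1, 1.65 for CIITA and 0.90 for HLA-DPA1.

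**Figure D2:**
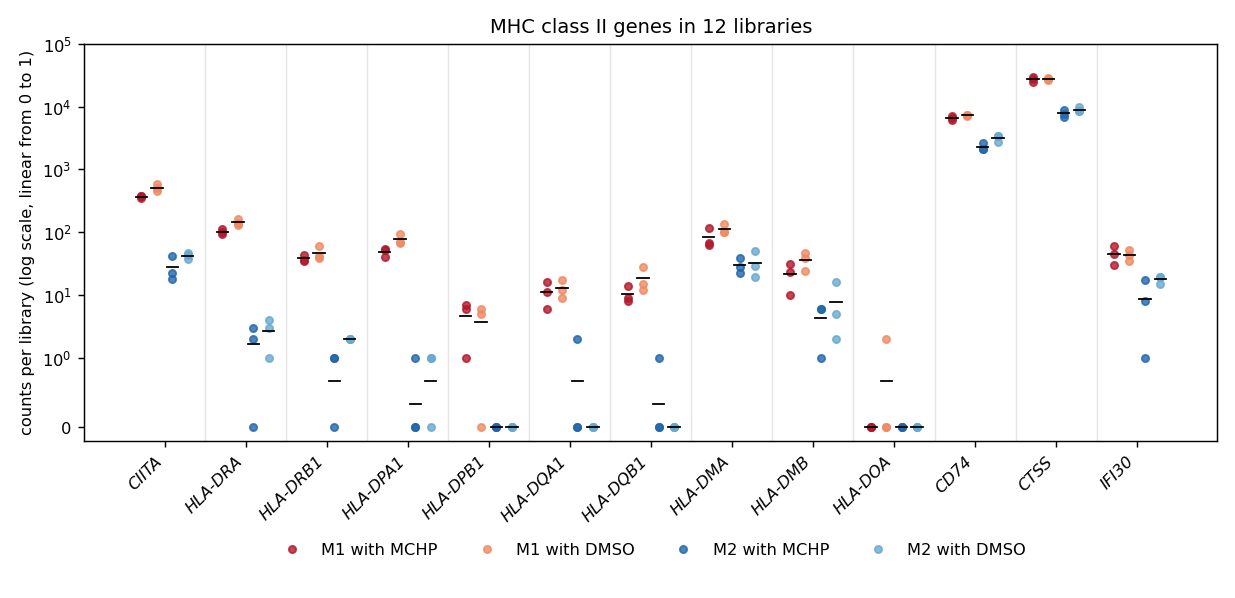
Class II genes by library: raw counts, 1 point per library and a bar at the group mean, with the 4 groups in the order M1 MCHP, M1 DMSO, M2 MCHP and M2 DMSO for each gene, on a logarithmic axis with a linear stretch near 0. CD74 and CTSS are far above the other genes in all libraries, while HLA-DRA, HLA-DRB1, HLA-DPA1, HLA-DPB1, HLA-DQA1 and HLA-DQB1 fall to at most 4 counts in every M2 library.

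The 7 shared genes moved in both directions. RFX5 and PDIA3 were higher and CALR, CANX and CD1D lower in M1 than in M2 under both treatments. RFXAP and RFXANK, the other subunits of the RFX complex, did not pass the test in either. Of all tested genes, 42.5% in DMSO and 44.6% in MCHP were called in either direction. RFX5, the DNA-binding subunit of RFX, rose by 0.61 ± 0.06 in DMSO, and PDIA3, the disulfide isomerase of the class I loading complex, by 0.29 ± 0.07. The call for PDIA3 in DMSO was lost when libraries were scaled by library size alone (edgeR adjusted p = 0.09852). RFXAP had 4.95, 4.29 and 4.59 CPM in M1 MCHP and 5.36, 5.33 and 3.88 CPM in M1 DMSO, against 4.33, 5.98 and 5.48 CPM in M2 MCHP and 6.301, 6.94 and 6.16 CPM in M2 DMSO. Its M1 libraries lay below its M2 libraries in DMSO and overlapped them in MCHP. It had a log2 fold change of -0.42 ± 0.17 in DMSO (edgeR adjusted p = 0.05423), a call gained with library size alone (0.01229), limma-voom (0.04492) and without M2 MCHP replicate 1 (0.0474), and RFXANK one of 0.06 ± 0.10.

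CD1D presents lipid antigens to natural killer T cells. It had 12, 21 and 15 counts in M1 MCHP and 12, 19 and 12 counts in M1 DMSO, against 53, 83 and 48 counts in M2 MCHP and 46, 61 and 66 counts in M2 DMSO. Every M1 library was below every M2 library, and CD1D fell by 1.82 ± 0.29 in DMSO (edgeR adjusted p = 4.31e-05) and by 1.84 ± 0.28 in MCHP (edgeR adjusted p = 2.618e-05). CALR (calreticulin), a chaperone of the class I heavy chain, had 894, 904 and 897 CPM in M1 MCHP and 925, 957 and 909 CPM in M1 DMSO, against 1324, 1340 and 1359 CPM in M2 MCHP and 1140, 1366 and 1389 CPM in M2 DMSO. The M1 libraries were all below the M2 libraries, of which M2 DMSO replicate 1 was the lowest. Its log2 fold change was -0.48 ± 0.06 in DMSO (edgeR adjusted p = 4.444e-06). CANX (calnexin), the membrane-bound counterpart of calreticulin, had 1496, 1444 and 1406 CPM in M1 MCHP and 1497, 1399 and 1463 CPM in M1 DMSO, against 1728, 1693 and 1765 CPM in M2 MCHP and 1750, 1570 and 1587 CPM in M2 DMSO. The M1 libraries were again all lower, with a log2 fold change of -0.17 ± 0.05 in DMSO (edgeR adjusted p = 0.01462); this call was lost without M1 DMSO replicate 2 (edgeR adjusted p = 0.08187).

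**Figure D3:**
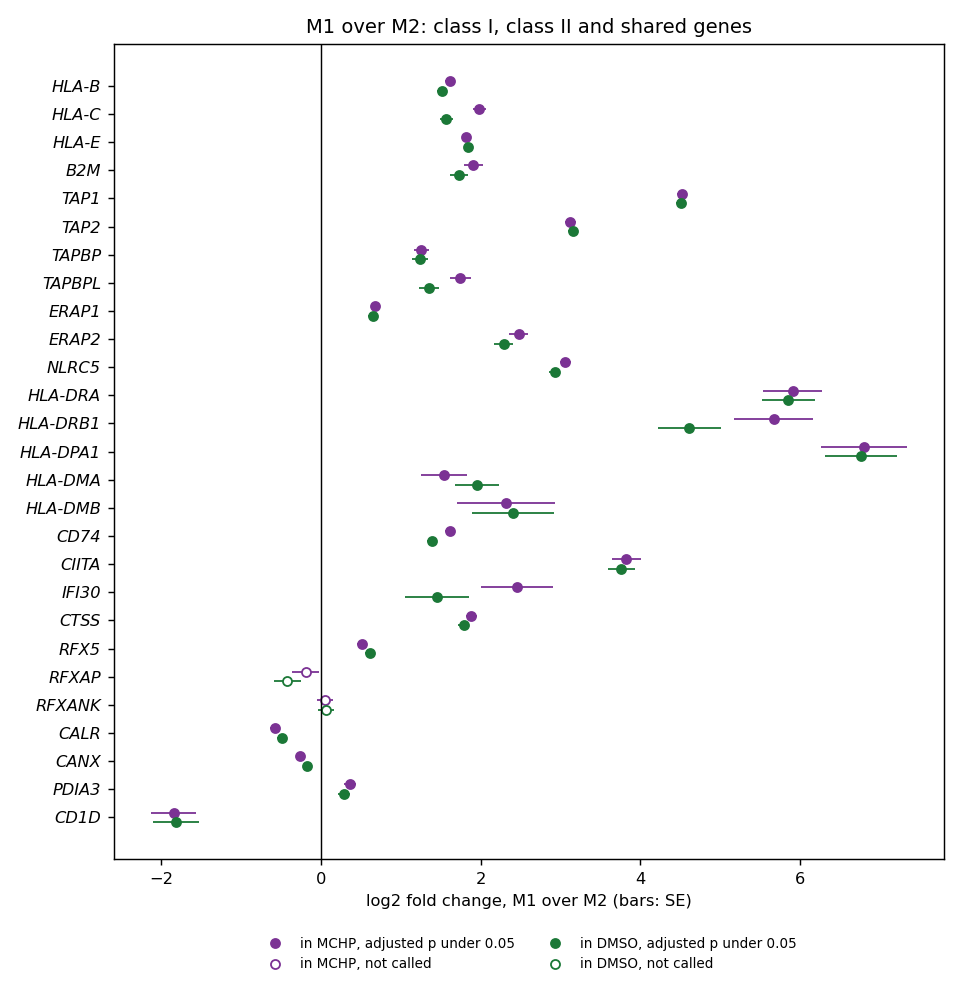
Log2 fold change of M1 over M2 for the 27 tested members with at least 1 count in each group, in MCHP (upper point of each gene) and in DMSO (lower point), with bars of 1 SE. Class I and class II points lie to the right of 0, from 0.66 for ERAP1 in DMSO to the HLA-DP alpha chain at 6.80 in MCHP, and the shared genes lie on both sides, with CD1D at -1.82 in DMSO.

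Other genes of the pathway were taken as a list of 33, of which 26 were tested. In DMSO 19 were higher in M1, 3 were lower and 4 were not called, with a median of 0.84, and in MCHP 19 were higher, 4 were lower and 3 were not called, with a median of 0.77. Of all tested genes, 21.6% were higher and 20.9% lower in DMSO, and 21.9% higher and 22.7% lower in MCHP. The largest rises in DMSO were of CTSL, a lysosomal cathepsin, and PSMB9, a subunit of the immunoproteasome that generates class I peptides. PSMB9 had 221, 211 and 214 CPM in M1 MCHP and 229.9, 235 and 223.5 CPM in M1 DMSO, against 10.1, 11.6 and 7.81 CPM in M2 MCHP and 9.51, 9.36 and 11.1 CPM in M2 DMSO, a log2 fold change of 4.52 in DMSO. CTSL had 150 counts in M1 MCHP and 156 in M1 DMSO, against 0 in M2 MCHP and 2 in M2 DMSO. It passed the filter through its M1 libraries, so its call in that direction follows from the filter, and its rank rests on these few M2 counts. HLA-DOB, with 26 counts in M1 MCHP and 32 in M1 DMSO, against 5 in M2 MCHP and 9 in M2 DMSO, passed it the same way. Any call of HLA-DOB in that direction would follow from the filter too. IRF1, a transcription factor induced by interferon, rose by 3.88 in DMSO. The largest falls were of CD1C (-4.37) and CD1A (-3.25), which present lipids and also stand in the list of dendritic cell markers. CD1C had 5 counts in M1 MCHP and 8 in M1 DMSO, against 115 in M2 MCHP and 194 in M2 DMSO. CD1A had 17 and 11 counts in M1 MCHP and M1 DMSO, against 66 and 122 in M2 MCHP and M2 DMSO. Both passed the filter through their M2 libraries, so their call in that direction follows from the filter.

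In M2 cells, 2 of the 29 tested members changed with MCHP, CD74 and HLA-C, and both fell. Of all tested genes, 5.11% were called in this comparison (2.92% higher and 2.18% lower), as 446 higher and 333 lower, or 306 and 465 with library size alone. CD74 had 134.8, 152.6 and 144 CPM in M2 MCHP, against 174.5, 199.6 and 193 CPM in M2 DMSO. The highest MCHP library lay below the lowest DMSO library, a difference larger than the spread within either group. Mean levels were 144 ± 8.89 and 189 ± 13.0 CPM (SD, n = 3 each), a log2 fold change of -0.39 ± 0.06 (95% interval -0.53 to -0.26), or 0.761-fold, with an edgeR adjusted p of 0.001014. The fall was called under all 19 alternatives tried, with edgeR, DESeq2 or limma-voom adjusted p of at most 0.04232, and was -0.45 without M2 DMSO replicate 1 (edgeR adjusted p = 4.246e-07).

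HLA-C had 129.6, 134.9 and 114.5 CPM in M2 MCHP, against 150.4, 148.9 and 178 CPM in M2 DMSO. Its groups did not overlap either, though they lay closer together, and M2 DMSO replicate 3 was well above the others of its group. The means were 126 ± 10.6 CPM in MCHP and 159 ± 16.5 CPM in DMSO, a log2 fold change of -0.33 ± 0.08 (95% interval -0.50 to -0.17; edgeR adjusted p = 0.01844). The call was lost without M2 MCHP replicate 1, M2 MCHP replicate 3 or M2 DMSO replicate 3 (edgeR adjusted p = 0.05847, 0.09241 and 0.07766) and when only M2 libraries were fitted (0.1291), and it held under 15 of 20 alternatives. The log2 fold changes in these 4 settings were -0.35, -0.28, -0.24 and -0.34. With the counts of HLA-B and HLA-C summed, since reads could be split between these paralogs, the log2 fold change was -0.12 (edgeR adjusted p = 0.3247). HLA-B itself had a log2 fold change of -0.08 (95% interval -0.21 to 0.06).

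None of the other class I genes was called in M2. The largest shift among them was of TAPBPL, with a log2 fold change of -0.29 (95% interval -0.573 to -0.004, edgeR adjusted p = 0.2582). Over the 11 tested, 6 had log2 fold changes below 0 and the median was -0.08, against 50.1% of genes below 0 and a median of 0 over all tested. The class I median was -0.03 without M2 DMSO replicate 1, -0.04 without M2 DMSO replicate 3, -0.11 without M2 MCHP replicate 2 and 0.006 without M2 MCHP replicate 3. B2M had a log2 fold change of -0.21 (95% interval -0.45 to 0.03; edgeR adjusted p = 0.347), with overlapping groups, and -0.03 without M2 DMSO replicate 1. TAP1 had one of 0.03 (95% interval -0.09 to 0.15) and NLRC5 one of -0.13 (95% interval -0.28 to 0.02). Without M2 DMSO replicate 1, NLRC5 (-0.20, edgeR adjusted p = 0.02452) and the shared gene CANX (0.13, edgeR adjusted p = 0.02965) were called too, in a fit that called 11.2% of all genes. Members whose groups did not overlap were HLA-C, HLA-DRB1, CD74 and RFXAP, with MCHP below DMSO, and TAP2 and RFX5, with MCHP above DMSO, 4 and 2 of 29, against 9.53% and 11.2% of all genes.

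Most class II genes other than CD74 and CTSS had few counts in M2. The 5 with at least 20 counts in both M2 groups, HLA-DMA, CD74, CIITA, IFI30 and CTSS, all had log2 fold changes below 0, with a median of -0.39; over all 11 tested, 9 were below 0 and the median was -0.54. That median was -0.34 without M2 DMSO replicate 1, -0.35, -0.34 and -0.31 without M2 MCHP replicates 1, 2 and 3, and -0.38 without M2 DMSO replicate 3, where 7 were below 0. CIITA had 42, 22 and 18 counts in M2 MCHP, against 37, 43 and 47 counts in M2 DMSO. M2 MCHP replicate 1 lay within the DMSO range and the other MCHP libraries lay below it. Its log2 fold change was -0.54 ± 0.24 (95% interval -1.04 to -0.03; edgeR adjusted p = 0.2384), and -0.997 without M2 MCHP replicate 1 (edgeR adjusted p = 0.01855). HLA-DRA had 5 counts in M2 MCHP and 8 in M2 DMSO, a ratio of 0.646 (95% exact binomial interval 0.166 to 2.24), so no difference was detectable at this depth. The shared genes had a median of 0.05, and edgeR called 0 of the 7, with 0 at an unadjusted p under 0.05. Of all 15252 genes tested in M2, 2863 had an unadjusted edgeR p under 0.05.

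Among the other genes of the pathway, 1 of 26 was called in M2, no larger a share than the 5.11% of all tested genes. It was CTSH, a lysosomal aminopeptidase. CTSH had 25.95, 24.8 and 25.5 CPM in M2 MCHP, against 30.7, 32.01 and 31.4 CPM in M2 DMSO, a log2 fold change of -0.30 (edgeR adjusted p = 0.02721). Its groups did not overlap, as for 9.53% of all genes with MCHP below DMSO. The macrophage marker CSF1R, a growth factor receptor, fell as well, to 249 ± 6.37 CPM in M2 MCHP, against 312 ± 19.2 CPM in M2 DMSO (edgeR adjusted p = 0.001837). It was the only tested macrophage marker called in M2. CD163, ITGAM, CD14 and SPI1 had log2 fold changes of -0.165, -0.105, -0.092 and -0.044, and LYZ had 0.027 (edgeR adjusted p of at least 0.2831). By library size alone, the macrophage markers summed to 1445 to 1481 CPM in M2 MCHP and 1520 to 1712 CPM in M2 DMSO. These ranges did not overlap, but the gap depended on the scale. Summed over TMM-scaled CPM, M2 DMSO replicate 1 no longer lay above the M2 MCHP libraries. The dendritic cell markers, by library size alone, summed to 13.0 to 18.1 CPM in M2 MCHP and 18.0 to 23.9 CPM in M2 DMSO. The part of either marker list in the falls of CD74 and HLA-C was not tested.

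**Figure D4:**
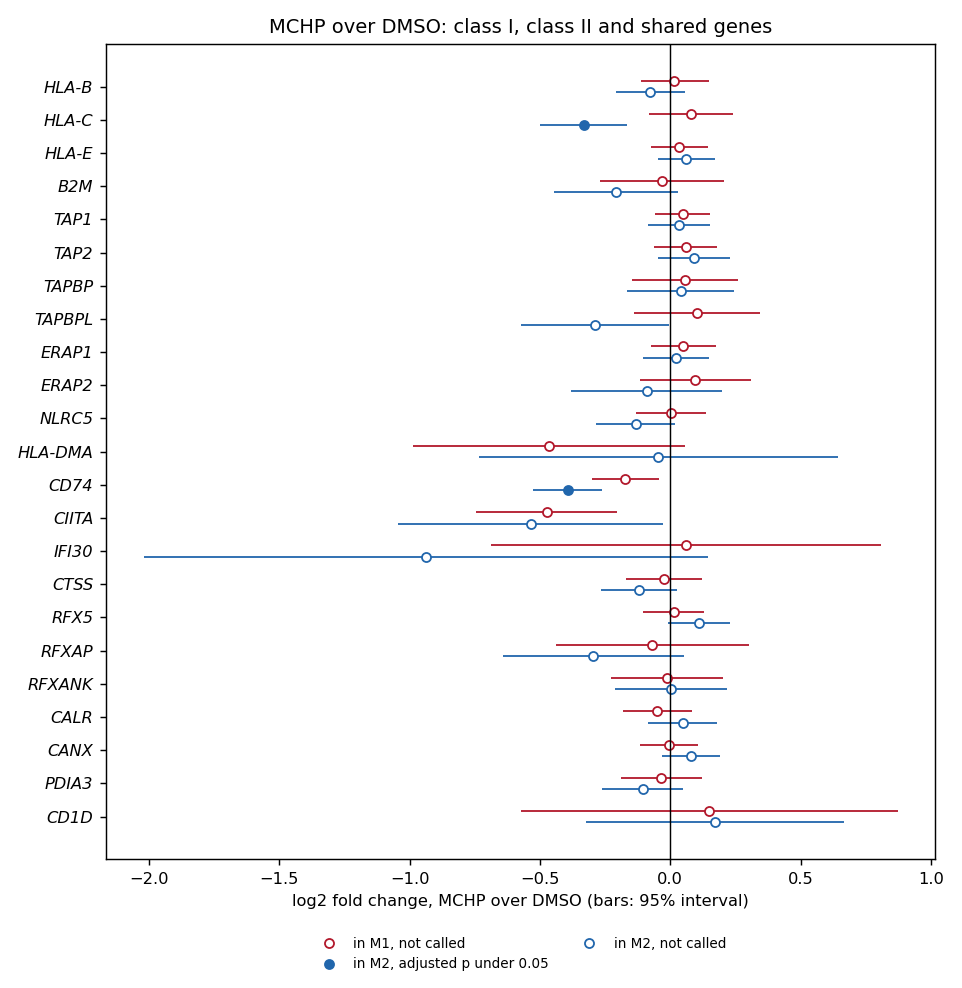
Log2 fold change of MCHP over DMSO in M1 (upper point of each gene) and in M2 (lower point), with 95% intervals, for the 23 members with at least 20 counts in each group. Filled points, the calls at an adjusted p of 0.05, are CD74 and HLA-C in M2; class I points of M1 lie near 0, between -0.03 and 0.10.

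In M1 cells, none of the 29 tested members was called with MCHP by edgeR, where 0.0852% of all genes were called (0.0721% higher and 0.0131% lower). By unadjusted edgeR p under 0.05 there were 4, HLA-DRA, HLA-DPA1, CD74 and CIITA, all lower in MCHP, against 817 of all 15252 genes tested. DESeq2 called 1 member and 0.328% of all genes, and limma-voom called 0 members and 0.0721% of all genes. Of the 11 class II genes, 10 had log2 fold changes below 0, with a median of -0.47 (-0.30 without M1 MCHP replicate 3), while of the 11 class I genes 10 were above 0, with a median of 0.05 and a range of -0.03 to 0.10. Over all genes tested, 50% were below 0 and the median was 0. MCHP lay below DMSO without overlap in 5 of 29 members, HLA-DRA, HLA-DPA1, CD74, CIITA and CALR, against 7.58% of all genes, and above it in 0, against 8.35%.

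CIITA had 23.7, 27.2 and 23.2 CPM in M1 MCHP, against 32.2, 33.9 and 36.7 CPM in M1 DMSO. All 3 MCHP libraries were below all 3 DMSO libraries. The means were 24.7 ± 2.17 and 34.2 ± 2.26 CPM (SD, n = 3 each), a log2 fold change of -0.47 ± 0.13 (95% interval -0.75 to -0.20) or 0.720-fold, with an edgeR adjusted p of 0.3203. With DESeq2 the adjusted p was 0.0481, in an edgeR fit of the M1 libraries only it was 0.0003413, with no filter on low counts 0.01913 and without M2 DMSO replicate 1 it was 0.014. The difference thus exceeded the spread between M1 libraries, while its call depended on the libraries and genes fitted with it (called under 4 of 19 alternatives, adjusted p up to 0.9504). Of all genes, 2.07% were called in the fit of M1 libraries only and 1.02% without M2 DMSO replicate 1.

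CD74 had 447, 441 and 434.5 CPM in M1 MCHP, against 509, 504 and 477 CPM in M1 DMSO, again without overlap. Its log2 fold change was -0.17 ± 0.06 (95% interval -0.30 to -0.04; edgeR adjusted p = 0.6605), and it was called in the fit of the M1 libraries only (0.001605) and without M2 DMSO replicate 1 (0.03847), 2 of 19 alternatives. HLA-DRA, with 7.07, 7.19 and 6.16 CPM in M1 MCHP, against 10.2, 10.7 and 8.14 CPM in M1 DMSO, had a log2 fold change of -0.50 ± 0.19 (95% interval -0.90 to -0.11; edgeR adjusted p = 0.7175). The MCHP libraries of HLA-DRA were all below its DMSO libraries. HLA-DPA1, with 3.38, 2.91 and 3.41 CPM in M1 MCHP, against 5.00, 6.27 and 4.26 CPM in M1 DMSO, had one of -0.68 ± 0.23 (95% interval -1.16 to -0.19; edgeR adjusted p = 0.6225).

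Neither chain was called under any of the 19 alternatives tried (adjusted p of at least 0.06071 for HLA-DRA and 0.07548 for HLA-DPA1). For the other class II chains the intervals included 0: HLA-DQB1 had -0.85 (95% interval -1.82 to 0.12), HLA-DMB -0.79 (-1.72 to 0.15), HLA-DMA -0.46 (-0.99 to 0.06), HLA-DRB1 -0.29 (-0.82 to 0.24) and HLA-DQA1 -0.20 (-1.26 to 0.87). CTSS and IFI30, which act on antigen or invariant chain in the endosome, had -0.02 (-0.17 to 0.12) and 0.06 (-0.69 to 0.81). Of the regulators upstream, IRF1 had 0.03 and RFX5 had 0.01 (-0.10 to 0.13). Of the 26 tested other genes of the pathway edgeR called 0 in M1, with 0 at an unadjusted p under 0.05. Of all 15252 genes tested, 817 had such a p in M1. By library size alone, the macrophage markers summed to 1405 to 1448 CPM in M1 MCHP and 1471 to 1517 CPM in M1 DMSO. These ranges did not overlap, and the part of the markers in the values above was not tested.

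**Figure D5:**
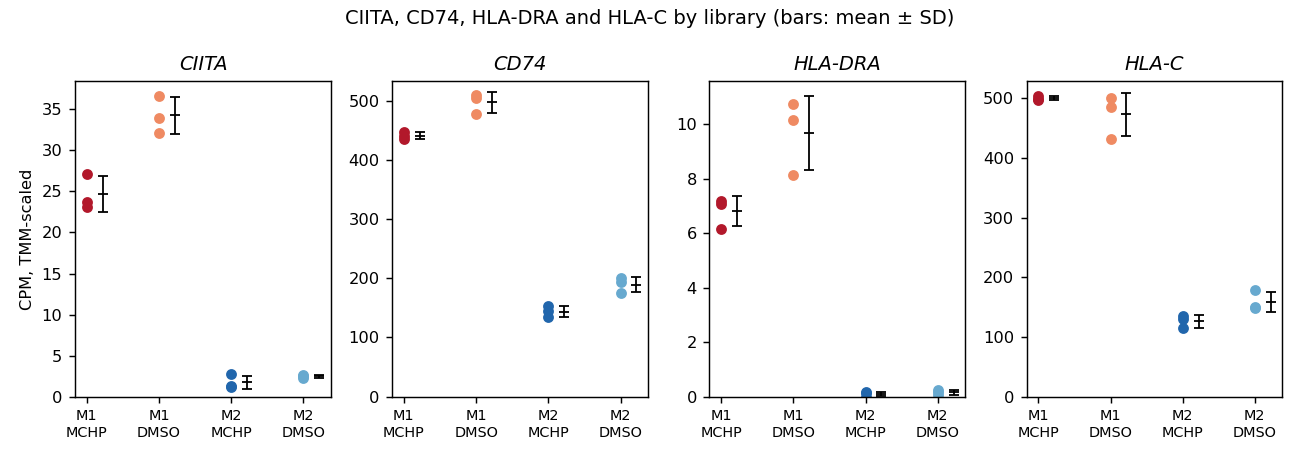
TMM-scaled CPM by library for CIITA, CD74, HLA-DRA and HLA-C in M1 MCHP, M1 DMSO, M2 MCHP and M2 DMSO, with 1 point per library and the mean ± SD beside it. CIITA, CD74 and HLA-DRA are lower in M1 MCHP than in M1 DMSO in all libraries, and CD74 and HLA-C are lower in M2 MCHP than in M2 DMSO.

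The response to MCHP was not shown to differ between M1 and M2 for any member. In the test of the difference (M1 minus M2), 0 of 29 members were called by edgeR, against 0.164% of all genes (0.059% higher and 0.105% lower). By unadjusted edgeR p under 0.05 there were 3 members, against 1349 of all 15252 genes tested. DESeq2 and limma-voom called 0 members, against 0.629% and 0.111% of all genes. HLA-C, with a log2 fold change of 0.08 in M1 and -0.33 in M2, had a difference of 0.41 ± 0.11 (95% interval 0.18 to 0.64; edgeR adjusted p = 0.1881). It was called with no filter on low counts (0.006578) and without M2 DMSO replicate 1 (0.004512). CD74, at -0.17 in M1 and -0.39 in M2, had a difference of 0.22 ± 0.09 (95% interval 0.04 to 0.41; edgeR adjusted p = 0.4612), called only without M2 DMSO replicate 1 among the alternatives tried (0.01976). For CIITA, at -0.47 in M1 and -0.54 in M2, the difference was 0.06 with a 95% interval of -0.50 to 0.62.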

How the data were processed

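The authors deposited a table of whole-number counts per gene, not normalized, for 12 libraries. Per the submitters' processing notes, featureCounts 1.5.0-p3, HISAT2 2.0.5, DESeq2 1.20.0, fastp and StringTie 1.3.3b were used with the build hg38; their roles are not given in the sources used here. Of 58907 gene identifiers, 58735 were in GENCODE 29. Depth was 14352202 to 16871233 counts per library, and low counts limit the class II chains.

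Counts were analysed with edgeR 4.0.16 in R 4.3.3: filterByExpr (15252 genes, keeping 99.82% or more of each library), TMM scaling, 1 mean per group over all 12 libraries (8 residual degrees of freedom), the two-sided quasi-likelihood F-test for 5 contrasts and Benjamini-Hochberg adjustment over all tested genes, with a threshold of 0.05. Standard errors come from the log2 fold change and its F value. Steps were tested on simulated counts. Alternatives were DESeq2 size factors, library size alone, no filter, limma-voom (limma 3.58.1), DESeq2 1.42.0, replicate number as a block, a fit of the compared libraries only, each library left out, and paralogs summed. Exact binomial intervals and the floor of 3 counts cover counting error only.

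The members, lists, named genes and tests were chosen with earlier results of these data known. Values per library were given for HLA-B, B2M, TAP1, NLRC5, HLA-DRA, CD74, CIITA and CD1D, for members called in an MCHP contrast and for the 3 largest changes each way between M1 and M2 in DMSO. Of the other pathway genes, those called in an MCHP contrast and the 2 largest changes each way were named. IRF1, CSF1R, CCL5, CCL13, HLA-DOB and the values of CANX were added after their values were seen. So were the M2 values with MCHP of TAPBPL and of the other macrophage markers. A further motif that was searched is not reported here.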

Additional observations from a re-analysis of the deposited data

How the results depend on the processing

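Between M1 and M2, 27 of the 29 tested members were called in DMSO and in MCHP. The alternatives gave 26 to 28 in DMSO and 25 to 28 in MCHP. The 28 in MCHP came with no filter, where all 32 were tested. With the compared libraries only, fewer members passed the filter, and 26 of 28 were called in DMSO and 25 of 27 in MCHP. Of all genes, the alternatives called 20.0% to 46.2% in DMSO and 21.1% to 52.7% in MCHP. With MCHP in M2 the count was 2. It was 1 of 23 members tested with the M2 libraries only. Leaving out each library in turn gave 1 to 4, with 1 without M2 MCHP replicate 3 or M2 DMSO replicate 3 and 4 without M2 DMSO replicate 1. With MCHP in M1 the count was 0; it was 1 with no filter on low counts (CIITA), 1 with DESeq2 (CIITA), 2 with the M1 libraries only (CIITA and CD74), and 0 to 2 with each library left out, the 2 being without M2 DMSO replicate 1. For the difference of the responses the count was 0, with 1 with no filter (HLA-C) and 0 to 2 with each library left out, the 2 again without M2 DMSO replicate 1; the cause was not tested. Of all genes, the share called with MCHP in M2 was 5.11%, against 1.26% with the M2 libraries only and 2.49% when M2 MCHP replicate 3 was left out; leaving out M2 DMSO replicate 1 gave 11.2% and replicate 3 of that group 4.58%. In M1 it was 0.0852%, against 0.236% with no filter, 0.328% with DESeq2, 2.07% with the M1 libraries only and 1.02% without M2 DMSO replicate 1. For the difference it was 0.164%, against 0.527% with no filter and 2.46% without M2 DMSO replicate 1. B2M in M2 was called with no filter (-0.21, adjusted p = 0.004859). No called value changed sign under an alternative. Replicate numbers did not pair the libraries: the correlation of deviations between same-numbered libraries ran from -0.048 to 0.039. With the replicate block the members called were 2 (MCHP in M2), 0 (MCHP in M1), 0 (difference), 27 and 27 (M1 over M2 in DMSO and in MCHP). Scaling by library size alone gave a median over all genes of -0.132 on the log2 scale for M1 over M2 in DMSO, against -0.004 with TMM. The counts allow no statement on HLA-F, HLA-DPB1 and HLA-DOA, and little on class II chains in M2.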
